A study of Mus musculus with 12 samples.

Results

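S100 genes encode small calcium-binding proteins of the EF-hand type, and 8 of them were followed here across normal mouse marrow and 3 leukemias, namely S100a1, S100a4, S100a6, S100a8, S100a9, S100a10, S100a11 and S100a13. They were listed by name for this work, with earlier results of these data known, out of 35976 gene symbols in the count table. All 8 were among the 15334 genes that passed the filter on low counts, whereas 9 other S100 symbols in the table did not pass it. The set thus holds only S100 genes with counts high enough to test here. The libraries were made from polyadenylated RNA of CD45.2-positive bone marrow cells sorted by flow cytometry from C57BL/6 mice, with 3 libraries in each of 4 groups. All groups share the genotype CD45.2(+), which is all that normal marrow (WT) carried. To it the leukemias add a fusion gene: BRD9-NUTM1 in the group BN1, MLL-AF9 in MA9 and MLL-ENL in ME. CD45 is a surface protein of white blood cells and CD45.2 a variant of it, so a sort on it takes leukocytes of many lineages. The labels give neither the age of the animals nor the way in which a fusion was introduced, and nothing in them says that the 3 libraries per group are different animals. The p-values therefore measure only the spread between these libraries, which may be technical.

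S100 proteins work mostly as dimers that change shape when calcium binds and then attach to partner proteins such as annexins, myosin or enzymes. S100A8 and S100A9 join into calprotectin, a major cytosolic protein of neutrophils and monocytes that binds zinc and manganese and, once released, acts on Toll-like receptor 4 and on the receptor RAGE. In the marrow their transcripts build up as granulocytes mature, whereas S100A4, S100A6, S100A10 and S100A11 are found in many cell types. Most genes of the family lie side by side in a cluster that is conserved between mouse and human.

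Library totals ran from 18292636 to 25732049 counts. Levels are given as CPM, each gene's counts scaled to 1e6 counts of its library after TMM scaling of the library sizes, with the mean ± SD over 3 libraries where a group is summarised. ME replicate 3 stood apart from the other ME libraries, with a mean chi-square per gene of 32.31 and 35.22 against them, while all other pairs within a group gave 2.005 to 7.513. Leaving it out changed the call of none of the 8 genes in any comparison. Ptprc, which encodes CD45, had means of 997 ± 78.7 CPM in WT and 498 ± 21.0, 382 ± 29.2 and 324 ± 9.11 CPM in the leukemias BN1, MA9 and ME, and so was present in every group. Markers of B cells, of T and NK cells and of red cells summed to 1062 to 1202, 174 to 182.5 and 16557 to 21668 CPM in the WT libraries, and to at most 19.3, 1.60 and 16.8 CPM in any leukemia library. WT was thus a mixture of lineages, and in such bulk samples fewer cells of a type and less RNA per cell cannot be told apart.

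Of the 8 genes, 6 lie on chromosome 3 within 184.7 kb (RefSeq, GRCm38.p6), in the order S100a1, S100a13, S100a4, S100a6, S100a8 and S100a9. S100a11 and S100a10 lie 2.82 Mb farther along the same chromosome, 28.8 kb apart. All 8 are annotated as protein-coding.

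Each of the 8 genes was first compared with normal marrow. In BN1, MA9 and ME alike, 6 genes were lower than in WT and 2 were higher by edgeR's quasi-likelihood test at a Benjamini-Hochberg adjusted p under 0.05. The lower ones were S100a4, S100a6, S100a8, S100a9, S100a10 and S100a11, and the higher ones were S100a1 and S100a13. These counts stand against a background in which 79.2% of all tested genes were called in BN1, 80.1% in MA9 and 79.2% in ME. By direction, 40.8%, 40.8% and 40.2% of all genes were lower and 38.4%, 39.3% and 39% were higher. With library sizes alone as scaling, 6735 genes were higher and 5614 lower in BN1, 7073 and 5405 in MA9, and 6687 and 5585 in ME, while the S100 counts were 2 and 6 in each. The median log2 fold change of the 8 genes was -1.34, -3.20 and -1.80 in BN1, MA9 and ME, against medians over all genes of -0.01 in each. The 3 comparisons share the WT libraries and are not independent of each other. Where groups are said below not to overlap, this is a description. The share of all tested genes without such overlap was not computed.

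**Figure D1:**
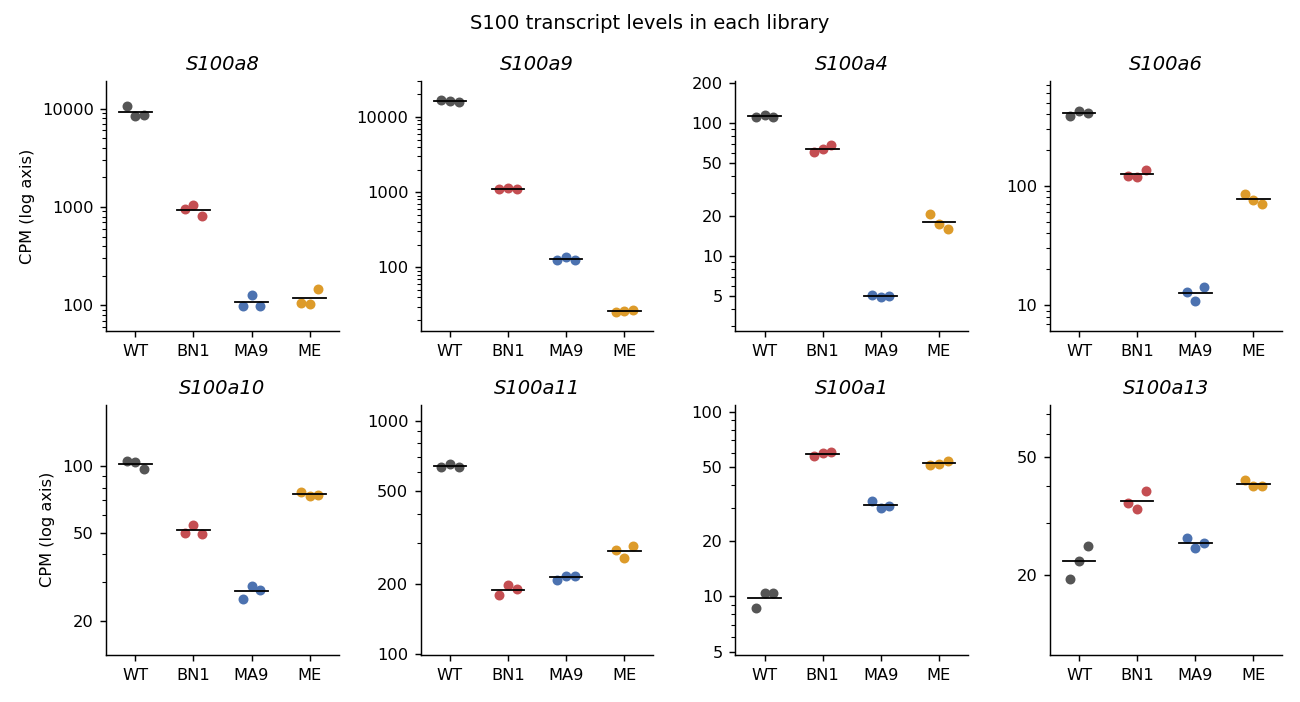
Level of each S100 gene in CPM (log axis, its own scale in each panel) in the 3 libraries of WT, BN1, MA9 and ME. Points are libraries and bars are group means. S100a8, S100a9, S100a4, S100a6, S100a10 and S100a11 are highest in WT, and S100a1 and S100a13 are lowest there.

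**Figure D2:**
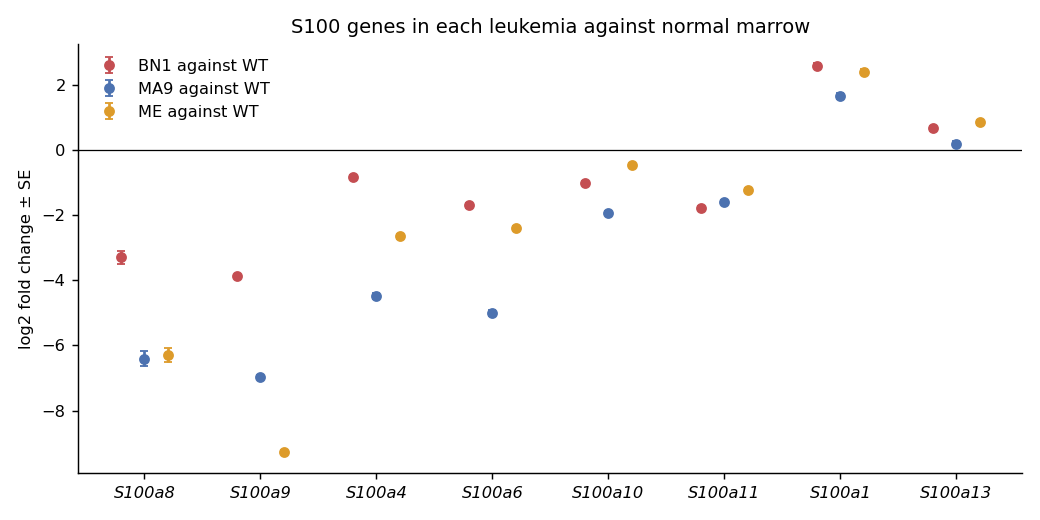
Log2 fold change ± SE of the 8 S100 genes in BN1, MA9 and ME against WT from the edgeR fit, with the line at 0 marking no change. S100a9 reaches -9.26 in ME, S100a1 reaches 2.59 in BN1, and S100a13 stays closest to 0 in BN1 (0.68) and MA9 (0.21).

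The calprotectin genes showed the largest falls. S100a8 (chr3:90669071-90670034, plus strand) stood at 10605, 8431 and 8543 CPM in the WT libraries, 947, 1052 and 813 CPM in BN1, 98.1, 128 and 99.0 CPM in MA9 and 104, 103 and 146.5 CPM in ME. Its levels in the 3 groups WT, BN1 and the MLL leukemias lay in separate ranges, while those of MA9 and ME overlapped. The fold change of S100a8 against WT was -3.29 ± 0.19, -6.41 ± 0.23 and -6.29 ± 0.23 (log2) in BN1, MA9 and ME, with adjusted p of 2.6e-07, 5.1e-09 and 5.8e-09 in edgeR. S100a9 (chr3:90692630-90695721, minus strand) stood at 16682, 16108 and 15732 CPM in WT, 1113, 1132 and 1091 CPM in BN1, 125, 138 and 125 CPM in MA9 and 25.5, 26.25 and 27.45 CPM in ME. No library of a group reached the range of another, and the order was WT, BN1, MA9 and ME from high to low. S100a9 fell by 3.86 ± 0.045 (log2) in BN1, by 6.97 ± 0.052 in MA9 and by 9.26 ± 0.058 in ME. That is 14.5-fold, 125-fold and 613-fold lower than in WT (adjusted p of 7.5e-31, 3.3e-35 and 3.2e-37 in edgeR).

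The proportion of the calprotectin partners in ME lay outside the range of all other libraries. The ratio of S100a8 to S100a9 counts was 0.636, 0.523 and 0.543 in the WT libraries, 0.851, 0.929 and 0.745 in BN1, 0.783, 0.929 and 0.790 in MA9 and 4.09, 3.92 and 5.34 in ME. In ME alone S100a8 counts exceeded those of S100a9, in each of its 3 libraries, and the ratio without ME replicate 3 was still 4.01. Per transcript length, as CPM per kb, the mean ratio was 0.606 in WT and 4.75 in ME. Between the MLL leukemias S100a8 differed by -0.12 ± 0.19 (log2, MA9 minus ME), with a 95% interval of -0.55 to 0.31 and an adjusted p = 0.67 in edgeR. Without ME replicate 3 this S100a8 difference was 0.06 (adjusted p = 0.834). S100a9 was 4.91-fold higher in MA9 than in ME (2.29 ± 0.046 (log2), adjusted p = 1.1e-24). The ratios are given as a description, with no test.

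**Figure D3:**
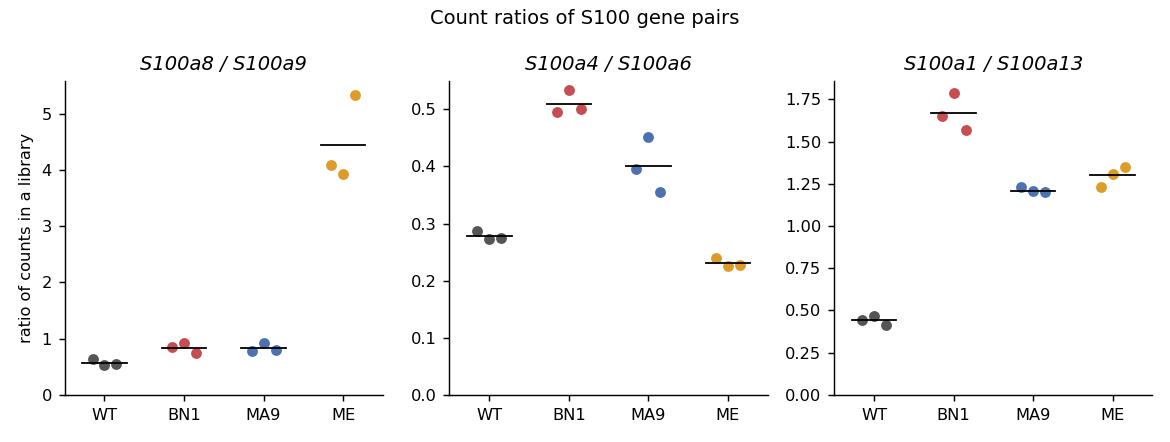
Ratio of the counts of a pair of S100 genes in each library, for S100a8 to S100a9, S100a4 to S100a6 and S100a1 to S100a13 (linear axes from 0). Points are libraries and bars are group means. The S100a8 to S100a9 ratio averages 4.45 in ME and lies under 1 in all libraries of the other groups, and the S100a1 to S100a13 ratio is lowest in WT.

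Upstream sequences are shown for the calprotectin genes because they neighbour each other, lie 22.6 kb apart and yet diverged in ME. They are RefSeq promoter windows on GRCm38.p6, read 5′ to 3′ along the gene and ending before any base that GENCODE annotates as untranslated region. Distances of motifs are counted from the RefSeq start. The window was found for 7 of the 8 genes. Capitals mark matches to 6 short motifs searched on both strands. They are the TATA box, spelled TATAAA, and the C/EBP motif with the letters TTNNGNAA. For PU.1 the letters GAGGAAGT were searched and for AP-1 the letters TGANTCA. The GC box was spelled GGGCGG. The last was the E-box with its palindrome CACGTG.
S100a8 promoter, chr3:90668821-90668977, plus strand: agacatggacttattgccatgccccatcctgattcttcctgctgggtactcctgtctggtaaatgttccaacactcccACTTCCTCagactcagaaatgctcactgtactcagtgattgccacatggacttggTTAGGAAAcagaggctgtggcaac
S100a9 promoter, chr3:90695722-90695971, minus strand: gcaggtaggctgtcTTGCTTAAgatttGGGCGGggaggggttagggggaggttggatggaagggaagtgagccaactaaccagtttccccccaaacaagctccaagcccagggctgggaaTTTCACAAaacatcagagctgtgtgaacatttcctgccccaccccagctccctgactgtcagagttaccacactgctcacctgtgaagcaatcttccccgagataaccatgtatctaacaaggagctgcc
C/EBP factors and PU.1 are the main transcription factors of granulocytes and monocytes. The S100a8 window held a PU.1 match at 172 to 165 bases and a C/EBP match at 117 to 110 bases before the annotated start. A TATA match lay 30 to 25 bases before the start, in the stretch not printed. The S100a9 window held C/EBP matches at 236 to 229 and at 130 to 123 bases and a GC box at 223 to 218 bases, and the TATA letters began at base 1 of the annotated transcript, just past the printed stretch. Of 32851 windows of 250 bases in the annotation, 36.8% held the C/EBP letters, 2.44% the PU.1 letters, 12.4% the TATA letters and 32.7% the GC box. A match describes letters in a window and not a bound site.

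The falls of S100a8 and S100a9 went along with falls of all 12 mature neutrophil markers examined, for which 12 of 12 were lower than WT in BN1, MA9 and ME. Of all tested genes, 40.8%, 40.8% and 40.2% were lower there. The summed level of the list was 39016 to 39261 CPM in WT, and 3525 to 3602, 564 to 574 and 666 to 689 in the respective leukemias BN1, MA9 and ME, with no marker at 0 counts in any group. Like S100a9, the lactoferrin gene Ltf, the granule gene Ngp and the gelatinase gene Mmp9 were lower in ME than in MA9. Mmp9 fell from 2959 ± 6.76 CPM in normal marrow to 97.5 ± 3.54, 13.96 ± 1.37 and 2.99 ± 0.442 CPM in BN1, MA9 and ME. Of the 12 markers, 7 were lower in ME than in MA9, 3 were higher and 2 were not called, so no single direction between the MLL leukemias covered the list. Those higher in ME were Lcn2, Mmp8 and Mxd1, at -2.55 ± 0.044, -2.92 ± 0.070 and -0.36 ± 0.055 (log2, MA9 minus ME). Of all tested genes, 20.2% were higher and 20.4% lower in MA9 than in ME. The median log2 fold change of the list was -3.64, -6.60 and -7.80 in BN1, MA9 and ME. The part of these markers in the S100a8 and S100a9 results was not tested.

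**Figure D4:**
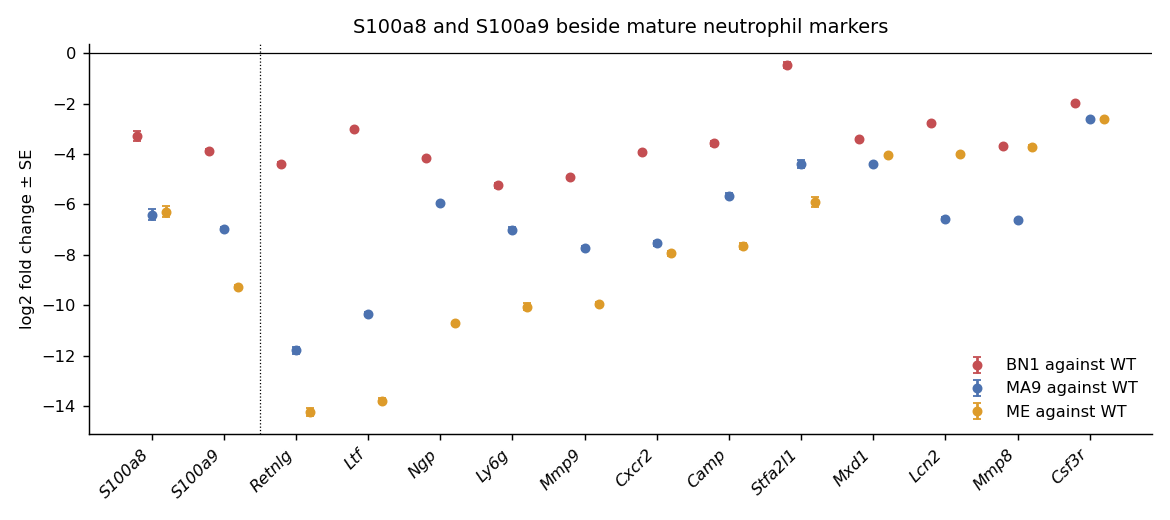
Log2 fold change ± SE against WT for S100a8 and S100a9, left of the dotted line, and for 12 mature neutrophil markers ordered by their value in ME. All points lie under 0, and S100a8 in MA9 (-6.41) and ME (-6.29) is nearly level while S100a9 runs from -6.97 to -9.26.

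S100a4 and S100a6 formed a second pair of neighbours, 6.85 kb apart, and were lowest in MA9. S100A4, also called metastasin, binds the heavy chain of non-muscle myosin, and S100A6, or calcyclin, binds annexins and the calcyclin-binding protein. S100a4 (chr3:90603770-90606045, plus strand) stood at 111, 115 and 112 CPM in WT, 60.1, 63.6 and 68.1 CPM in BN1, 5.12, 4.92 and 5.05 CPM in MA9 and 20.6, 17.3 and 15.9 CPM in ME. S100a6 (chr3:90612894-90614414, plus strand) stood at 387, 421 and 407 CPM in WT, 121, 119 and 136 CPM in BN1, 12.96, 10.9 and 14.2 CPM in MA9 and 85.7, 76.6 and 69.8 CPM in ME. For both genes the order from high to low was WT, BN1, ME and MA9, and no groups overlapped. S100a4 changed by -0.82 ± 0.064, -4.48 ± 0.088 and -2.65 ± 0.074 (log2) in BN1, MA9 and ME, with adjusted p of 3.5e-12, 5.9e-26 and 1.8e-22 in edgeR. S100a6 changed by -1.69 ± 0.070, -5.0 ± 0.088 and -2.39 ± 0.073 in BN1, MA9 and ME (adjusted p of 1.7e-15, 3.7e-22 and 7.2e-18). In BN1, S100a4 thus kept 56.8% of its WT level and S100a6 31%.

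Beside their similar order, the pair differed in proportion. The ratio of S100a4 to S100a6 counts averaged 0.278 ± 0.008 in WT against 0.510 ± 0.021, 0.401 ± 0.049 and 0.231 ± 0.008 in the BN1, MA9 and ME libraries. BN1 libraries, at 0.496, 0.534 and 0.501, lay above all others, and ME libraries lay below all others. The upstream window of S100a4 is shown to set a TATA match just before its start beside the S100a9 window. The capitals mark that match, 31 to 26 bases before the annotated start, and no other motif searched was found in it.
S100a4 promoter, chr3:90603520-90603769, plus strand: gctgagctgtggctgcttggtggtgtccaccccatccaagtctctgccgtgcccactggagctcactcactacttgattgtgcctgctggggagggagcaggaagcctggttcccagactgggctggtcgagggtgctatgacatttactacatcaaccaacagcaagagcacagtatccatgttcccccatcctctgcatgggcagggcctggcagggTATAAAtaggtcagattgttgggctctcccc
The S100a6 window held none of the letters searched and overlaps annotated transcript.

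S100a10 and S100a11, outside the cluster, had the smallest falls in MA9 and ME among the 6 genes that fell, whereas in BN1 the smallest was that of S100a4. S100A10, or p11, is the unusual member that no longer binds calcium and sits in a complex with annexin A2 at the plasma membrane, and S100A11 binds annexin A1. S100a10 (chr3:93555117-93564645) stood at 105.5, 104 and 96.9 CPM in WT, 49.9, 54.3 and 49.6 CPM in BN1, 25.2, 28.7 and 27.4 CPM in MA9 and 76.5, 73.3 and 74.4 CPM in ME. Groups did not overlap, and ME lay nearest to WT. The fold change of S100a10 was -0.997 ± 0.058, -1.91 ± 0.062 and -0.45 ± 0.057 (log2) in BN1, MA9 and ME, with adjusted p of 3.7e-15, 5.3e-21 and 4e-08 in edgeR. S100a11 (chr3:93520496-93526288, plus strand) stood at 631.5, 650 and 632 CPM in WT, 179, 197.5 and 190 CPM in BN1, 208, 215 and 216 CPM in MA9 and 279, 259 and 290 CPM in ME. Unlike the other genes that fell, S100a11 was lowest in BN1, with no overlap between groups. It fell by 1.76 ± 0.048 (log2) in BN1, by 1.58 ± 0.048 in MA9 and by 1.21 ± 0.047 in ME (adjusted p of 1.1e-22, 1.2e-21 and 4.9e-19 in edgeR).

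The annexin partners were read beside them. Anxa2, which encodes annexin A2, had means of 667 ± 3.65 CPM in WT and 275 ± 11.1, 267 ± 2.08 and 401 ± 5.06 CPM in the leukemias BN1, MA9 and ME. The S100a10 to Anxa2 count ratio averaged 0.153 in WT against 0.187, 0.101 and 0.186 in the BN1, MA9 and ME libraries, so the MA9 libraries held the least S100a10 per Anxa2. Anxa1 fell more than its partner S100a11, from 1827 ± 28.3 CPM in normal marrow to 177 ± 10.1, 109 ± 2.89 and 269 ± 12.4 CPM in BN1, MA9 and ME. The window of S100a11 is shown beside those of the calprotectin genes. Its capitals mark an E-box at 223 to 218 bases, AP-1 matches at 136 to 130 and 38 to 32 bases and GC boxes at 64 to 59, 52 to 47 and 24 to 19 bases before the start.
S100a11 promoter, chr3:93520246-93520487, plus strand: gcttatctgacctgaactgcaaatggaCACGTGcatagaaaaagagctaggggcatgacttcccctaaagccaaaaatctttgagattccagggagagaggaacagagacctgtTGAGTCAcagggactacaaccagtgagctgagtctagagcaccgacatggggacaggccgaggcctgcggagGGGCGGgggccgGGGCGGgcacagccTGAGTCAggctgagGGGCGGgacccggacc
It held no C/EBP, PU.1 or TATA letters. Most windows lack each of these, since 36.8% held the C/EBP, 2.44% the PU.1 and 12.4% the TATA letters. The S100a9 window likewise had no PU.1 or TATA match before the start, and it also held a GC box. AP-1 letters occurred in 6.75% and the E-box in 6.02% of all windows of the same length.

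S100a1 and S100a13 were the members that rose. S100A1 is best known from heart and skeletal muscle, where it acts on calcium release, and S100A13 takes part in the export of signal proteins that lack a leader peptide. S100a1 (chr3:90511034-90514330, minus strand) stood at 8.66, 10.5 and 10.4 CPM in WT, 57.7, 59.6 and 60.7 CPM in BN1, 33.0, 30.1 and 30.8 CPM in MA9 and 51.6, 52.5 and 53.9 CPM in ME. Every leukemia library lay above every WT library. S100a1 rose by 2.59 ± 0.077 (log2) in BN1, by 1.67 ± 0.081 in MA9 and by 2.42 ± 0.078 in ME, which is 6.04-fold, 3.18-fold and 5.36-fold higher (adjusted p of 7.3e-22, 6.2e-17 and 5.3e-21 in edgeR). S100a13 (chr3:90514233-90524581, plus strand) stood at 19.4, 22.4 and 25.1 CPM in WT, 35.0, 33.4 and 38.6 CPM in BN1, 26.8, 24.8 and 25.6 CPM in MA9 and 41.8, 40.0 and 39.95 CPM in ME. The WT and MA9 ranges overlapped, and the other groups did not. It rose by 0.68 ± 0.081 (log2) in BN1 and by 0.87 ± 0.082 in ME (adjusted p of 1.7e-08 and 1.6e-10 in edgeR). In MA9 the difference was 0.21 ± 0.084 (adjusted p = 0.025), and this call was lost with DESeq2 (adjusted p = 0.116), with its size factors in edgeR (0.0963), without WT replicate 1 (0.207) and without MA9 replicate 1 (0.0736).

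The pair lies head to head. S100a1 runs on the minus strand and S100a13 on the plus strand, and their RefSeq models overlap by 98 bases. The labels do not state whether reads were counted by strand, which leaves counts from the overlap uncertain for both. The S100a1 to S100a13 count ratio averaged 0.443 ± 0.026 in WT against 1.67 ± 0.108, 1.21 ± 0.015 and 1.30 ± 0.058 in the BN1, MA9 and ME libraries, so the neighbours did not move in proportion. The annotated starts used for their windows have 104 bases between them, and that of S100a13 lies inside its gene model. Neither window held any of the letters searched. Of the 250 bases, 93 in the S100a1 window and 192 in the S100a13 window are annotated as untranslated region.

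Compared with each other, the leukemias also differed in most S100 genes. BN1 exceeded MA9 for 7 of the 8 genes and was lower for S100a11, all 8 being called, where 67.7% of all genes were called, 32.8% higher and 34.9% lower. The median log2 difference was 2.01 over the 8 genes and -0.01 over all genes. S100a4 (3.67 ± 0.090 (log2)) and S100a6 (3.31 ± 0.087) differed most, followed by S100a8 (3.11 ± 0.20) and S100a9 (3.10 ± 0.044). S100a11 differed by -0.18 ± 0.048 (adjusted p = 0.0019 in edgeR), and the other 7 had adjusted p from 1.3e-28 to 7.2e-06.

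Against ME, BN1 was higher for 5 genes and lower for S100a10, S100a11 and S100a13, all 8 being called, with 64.7% of all genes called, 31.8% higher and 33% lower. S100a9 was 42.1-fold higher in BN1 (5.397 ± 0.050 (log2)), S100a8 7.96-fold higher (2.99 ± 0.19) and S100a4 3.55-fold higher (1.83 ± 0.074). S100a10 differed by -0.54 ± 0.058 and S100a11 by -0.55 ± 0.047. Differences of S100a1 (0.17 ± 0.063, adjusted p = 0.017 in edgeR) and S100a13 (-0.19 ± 0.076, adjusted p = 0.035) were small. The S100a1 call was lost without BN1 replicate 3 (adjusted p = 0.0537) and without ME replicate 1 (0.0679). That of S100a13 was lost with DESeq2 (0.0575) and without BN1 replicate 1 (0.0946), BN1 replicate 2 (0.172), ME replicate 1 (0.102) or ME replicate 2 (0.0569).

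Both MLL leukemias were then set against each other. MA9 was higher than ME for S100a9 alone and lower for 6 genes, and S100a8 was not called. Of all genes 40.6% were called, 20.2% higher and 20.4% lower. With library sizes alone as scaling, 3888 genes were higher and 2509 lower in place of 3095 and 3130, while the calls of the 8 genes stayed the same. S100a6 was 6.12-fold lower in MA9 than in ME (-2.61 ± 0.089 (log2)), S100a4 3.57-fold (-1.84 ± 0.10), S100a10 2.75-fold (-1.46 ± 0.062) and S100a1 1.68-fold (-0.75 ± 0.066). S100a13 (-0.66 ± 0.079) and S100a11 (-0.37 ± 0.047) followed. In edgeR the 6 genes had adjusted p between 2.5e-17 and 2.2e-07.

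Levels of different genes were compared per kb of transcript. S100a9 ranked first in WT at 31164 ± 921 CPM per kb, followed by S100a8 at 18916 ± 2520 and S100a11 at 1248 ± 19.9. In BN1 the same 3 genes led, at 2142 ± 39.3, 1928 ± 247 and 369 ± 18.5 CPM per kb. In MA9 and ME, S100a11 ranked first, at 417 ± 8.58 and 540 ± 30.9 CPM per kb. S100a9 came second in MA9 at 249 ± 13.9, beside S100a8 at 223 ± 34.9, and seventh in ME at 50.9 ± 1.91 CPM per kb. At the low end stood S100a1 in WT (14.5 ± 1.52), S100a13 in BN1 (49.8 ± 3.72) and S100a4 in MA9 (10.1 ± 0.21) and ME (36.0 ± 4.85).

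As a share of all counts, the 8 genes took 2.37% to 2.67% in the WT libraries and 0.248% to 0.275%, 0.0561% to 0.0608% and 0.0658% to 0.0706% in those of BN1, MA9 and ME. Most of this came from the calprotectin transcripts in WT, where S100a8 and S100a9 took 2.25% to 2.56%. In ME they took only 0.0131% to 0.0171%, and the other 6 genes 0.0527% to 0.0567%. Without S100a8 and S100a9, the summed level was 1263 to 1322 CPM in WT, and 502.5 to 543, 311 to 319 and 519 to 555 in the respective leukemias BN1, MA9 and ME, so BN1 and ME overlapped in this sum.

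Genes around the S100 cluster were read on the same scale. Within 300 kb of the cluster the table held 23 other genes, of which 16 were tested, and 5 were higher and 7 lower in BN1 than in WT, 4 and 7 in MA9, and 5 and 6 in ME. The 12, 11 and 11 calls among 16 genes stand against 79.2%, 80.1% and 79.2% of all genes. All but 1 of the 16 lie on the S100a1 side, so the S100a9 side is covered by Pglyrp4 alone. Their median log2 fold change was 0.04, -0.20 and -0.10. Chtop, whose gene model starts 12.5 kb before that of S100a1, stood between 151 and 165 CPM in every group mean. Snapin, at 23 kb before it, rose from 37.1 CPM in normal marrow to 76.8, 70.4 and 48.25 CPM in BN1, MA9 and ME. Pglyrp4, a peptidoglycan recognition gene, had 1.09 CPM in WT, 0.0128 CPM in BN1 and no counts in MA9 and ME, and was called lower in all 3 leukemias. Npr1, a natriuretic peptide receptor gene, rose from 0.252 CPM in WT to 1.34 in MA9 and 5.48 in ME. These 4 genes were chosen after their values were seen.

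**Figure D5:**
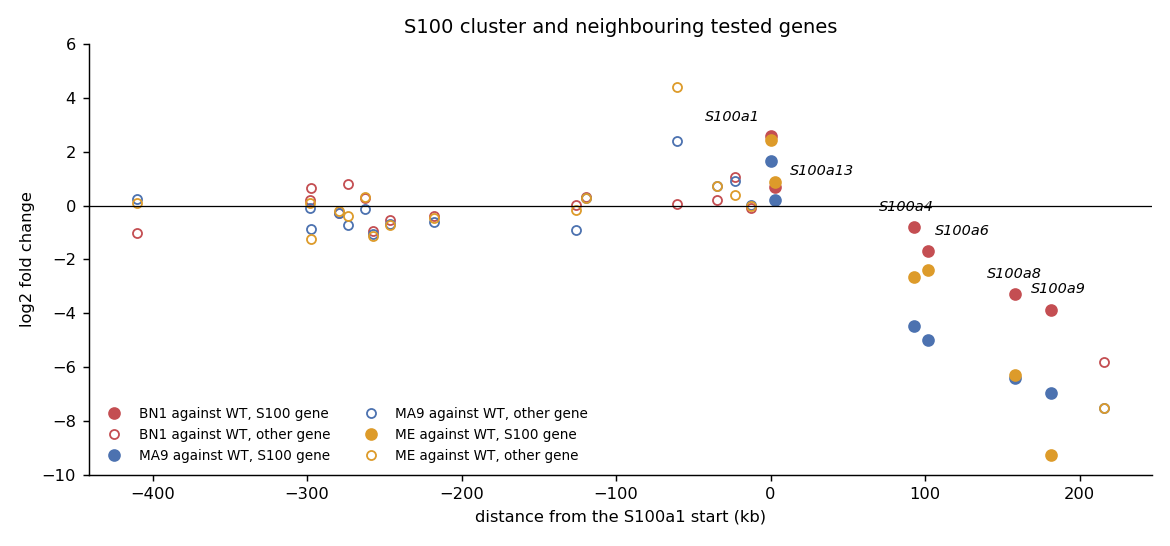
Log2 fold change against WT by distance in kb from the lowest coordinate of S100a1, for the 6 S100 genes of the cluster (filled) and 16 other tested genes (open). Going from left to right, S100a1 and S100a13 lie above 0 and S100a4, S100a6, S100a8 and S100a9 below it, whereas the other genes have a median of 0.04, -0.20 and -0.10 in BN1, MA9 and ME.

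Receptors and signalling partners of released S100 proteins, 11 genes in all, were mixed against WT. In BN1, 4 were higher and 6 lower, in MA9 2 and 8, and in ME 3 and 7. Their median log2 fold change was -0.29, -0.83 and -0.40. Of all tested genes, 38.4%, 39.3% and 39% were called higher and 40.8%, 40.8% and 40.2% lower in BN1, MA9 and ME. Tlr4, the Toll-like receptor for calprotectin, had means of 37.2 ± 0.917 CPM in WT and 41.6 ± 3.16, 20.9 ± 1.39 and 56.6 ± 3.94 CPM in the leukemias BN1, MA9 and ME. Its coreceptor gene Cd14 rose in MA9 (0.81 ± 0.10 (log2)) and ME (1.47 ± 0.098) and fell in BN1 (-0.29 ± 0.11), a call lost with library sizes alone (adjusted p = 0.15 in edgeR). Ager, which encodes RAGE, had means of 12.2 ± 1.15 CPM in WT and 8.20 ± 0.524, 2.80 ± 0.0233 and 3.502 ± 0.594 CPM in the leukemias BN1, MA9 and ME, lower in all 3 leukemias. Emb, which encodes embigin, a surface protein described as binding S100A8 with S100A9, rose in each leukemia by 0.32 ± 0.044, 0.57 ± 0.044 and 0.60 ± 0.044. Nptn, a relative of embigin, was higher in BN1 (1.02 ± 0.056) and lower in MA9 (-0.25 ± 0.058) and ME (-0.28 ± 0.058), the call in MA9 being lost with library sizes alone (adjusted p = 0.23 in edgeR). Mcam and Alcam of the same list were lower in all 3 leukemias. Mcam had 11.7 ± 0.402 CPM in WT and 0.273 ± 0.109, 0.0335 ± 0.058 and 0.248 ± 0.127 CPM in BN1, MA9 and ME. Alcam had 53.3 ± 9.67 CPM in WT and 15.85 ± 0.468, 1.37 ± 0.247 and 3.54 ± 0.546 CPM in BN1, MA9 and ME. Cd36, a scavenger receptor gene, had 59.7 ± 5.77 CPM in WT, with 1.83 ± 0.417 and 0.0766 ± 0.0679 CPM for BN1 and MA9 and no counts in ME (at least 1208-fold lower, taking 3 counts over all ME libraries as the floor).

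Of 14 intracellular partners, 4 were higher and 9 lower in BN1, and 3 were higher and 10 lower in both MA9 and ME. The median log2 fold change was -1.02, -1.01 and -0.72 in BN1, MA9 and ME. These counts stand beside 79.2%, 80.1% and 79.2% of all tested genes called, with 40.8%, 40.8% and 40.2% lower. Myh9, the myosin bound by S100A4, had means of 2359 ± 61.7 CPM in WT and 1116 ± 57.8, 1223 ± 82.0 and 1196 ± 117 CPM in the leukemias BN1, MA9 and ME. The partners that rose included Cacybp, the calcyclin-binding protein gene, from 48.4 ± 1.89 CPM to 167 ± 7.62, 90.7 ± 8.14 and 87.1 ± 5.46 in BN1, MA9 and ME. Ppfibp1, a liprin described as binding S100A4, rose from 7.81 ± 1.49 to 54.0 ± 0.963, 31.4 ± 3.41 and 37.7 ± 2.25 CPM. Ahnak, a large scaffold protein gene of the S100a10 complex, was higher in BN1 (607 ± 13.8 against 456 ± 22.4 CPM) and lower in MA9 (95.8 ± 4.75) and ME (156 ± 25.4). Cybb, which encodes the membrane subunit of the phagocyte oxidase that calprotectin supports, fell by 2.40 ± 0.058, 3.26 ± 0.061 and 2.20 ± 0.058 on the log2 scale.

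Of 13 transcription factor genes tied to myeloid or S100 genes, 8 were higher and 3 lower in BN1, 6 and 6 in MA9, and 6 and 4 in ME, with medians of 0.65, -0.13 and 0.14 (log2). Over all tested genes, 38.4%, 39.3% and 39% were higher and 40.8%, 40.8% and 40.2% lower in BN1, MA9 and ME. Cebpa, active in myeloid progenitors, rose from 118 ± 6.72 CPM in WT to 398 ± 26.8, 310.5 ± 31.2 and 291 ± 24.8 in BN1, MA9 and ME, whereas Cebpe, the factor of late granulocytes, fell from 145 ± 5.57 to 31.2 ± 2.94, 70.4 ± 4.79 and 76.3 ± 4.59 CPM. Spi1, which encodes PU.1, had means of 475 ± 20.9 CPM in WT and 450.0 ± 17.2, 391 ± 15.6 and 454 ± 23.4 CPM in the leukemias BN1, MA9 and ME, and was called only in MA9 (-0.28 ± 0.048). Gfi1 rose by 2.43 ± 0.053, 3.46 ± 0.054 and 3.75 ± 0.054. Klf4, a factor of monocytes, was higher in BN1 (0.65 ± 0.065) and lower in MA9 (-2.25 ± 0.077) and ME (-0.91 ± 0.070). Among 14 other EF-hand genes, 3 were higher and 9 lower in BN1, 5 and 9 in MA9, and 5 and 8 in ME, with medians of -0.495, -0.625 and -0.217. Actn1, an actin-bundling alpha-actinin, fell from 431 ± 3.27 to 91.8 ± 0.859, 15.2 ± 0.623 and 78.5 ± 1.58 CPM, while its relative Actn4 rose by 0.75 ± 0.050, 0.33 ± 0.050 and 0.52 ± 0.050.

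Other marker lists moved as follows against WT, and their part in the S100 results was not tested. The background was 79.2%, 80.1% and 79.2% of all tested genes called in BN1, MA9 and ME. By direction, 38.4%, 39.3% and 39% were higher and 40.8%, 40.8% and 40.2% lower. The 5 tested primary granule genes were higher in all 3 leukemias, with summed levels of 1516 to 1615 CPM in WT, and 21286 to 21912, 10992 to 11520 and 16800 to 17583 in the respective leukemias BN1, MA9 and ME. Of 10 monocyte and macrophage markers, 8 were higher and 2 lower in BN1, 3 and 6 in MA9, and 3 and 7 in ME, with summed levels of 10903 to 11247, 15585 to 16376, 3558 to 3807 and 5181 to 5462 CPM in WT, BN1, MA9 and ME. Lyz2 made up most of the sums in WT and BN1, and its fall dominates the lower sums in MA9 and ME. Ly6c2 and F13a1 were called higher in both MLL leukemias, so these sums do not describe the list as a whole. No granule or monocyte marker was at 0 counts in any group. The 8 markers each of B cells, of T and NK cells and of red cells were lower in all 3 leukemias, where their sums were at most 19.3, 1.60 and 16.8 CPM. Markers at 0 counts included Ms4a1 in MA9 and ME, Ebf1 in MA9 and Pax5 in ME for B cells, Gzma in BN1, Ncr1 in MA9 and Cd3g and Cd8a in ME for T and NK cells, and Car1 in all 3 leukemias and Slc4a1 in ME for red cells. Of 5 megakaryocyte markers, 1 was higher and 4 lower in BN1 and 5 lower in MA9 and in ME. Their sums were 52.7 to 65.2, 7.33 to 8.12, 3.02 to 4.91 and 3.44 to 5.46 CPM in the order WT, BN1, MA9 and ME, with Pf4 and Ppbp at 0 counts in BN1 and ME. Of 5 tested stromal and endothelial markers, 1 was higher and 4 lower in BN1, 2 and 3 in MA9, and 0 and 4 in ME. Over all 7 listed the sums were 88.1 to 92.2, 89.5 to 93.7, 143 to 150.2 and 46.3 to 48.1 CPM in the same order, with Kdr at 0 counts in BN1 and ME. Pecam1, which blood cells also express, made up most of these sums, at 75.2 CPM in WT and 90.3, 141.5 and 45.9 CPM in the leukemias, while Cdh5, Kdr and Col1a1 fell in each. Of 5 general leukocyte markers, 2 were higher and 3 lower in each leukemia, with sums of 3910 to 4009, 2213 to 2263, 2555 to 2562 and 2556 to 2656 CPM.

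Likeness between the profiles of the 8 genes over the 12 libraries was measured, as a description, by the root mean square difference of log2 CPM after centring each gene on its mean. The measure depends on how far a gene moves as well as on the shape of its profile. It was 0.45 for S100a4 and S100a6, 0.48 for S100a10 and S100a11, 0.73 for S100a1 and S100a13 and 1.15 for S100a8 and S100a9. S100a8 and S100a9 nevertheless had a Pearson r of 0.966, while S100a10 and S100a13, at a difference of 0.80, had a Pearson r of -0.01. For S100a4 and S100a6 the r was 0.968, for S100a1 and S100a13 0.877 and for S100a10 and S100a11 0.766. All 12 libraries share the 4 group means that dominate these profiles.

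The same measure was taken over 12949 genes. Where a gene has few or no counts in a group, as Adam33 with none in MA9 and ME and Ankrd22 with none in ME, its profile there is set by the prior count, and so in part is its rank. S100a8 was nearest to Adam33 (0.38), Ifit1bl2 (0.41) and the Fc receptor gene Fcgr1 (0.41), and S100a9 to Ankrd22 (0.32), Mmp25 (0.37) and Mmp9 (0.40). S100a4 was nearest to Mnda (0.14), Klra2 (0.22) and Fcnb (0.29), and S100a6 to Actn1 (0.28), Ifit1 (0.32) and Ccl6 (0.33). Mnda, a nuclear protein gene of myeloid cells, had means of 59.3 ± 7.20 CPM in WT and 33.1 ± 0.691, 2.47 ± 0.0948 and 10.6 ± 0.715 CPM in the leukemias BN1, MA9 and ME, with the same order of groups as S100a4. S100a10 was nearest to Arhgap24 (0.12), Hal (0.14) and Nfkbia (0.15), and S100a11 to Mbp (0.091), Hace1 (0.10) and Zyx (0.11). Zyx, which encodes the focal adhesion protein zyxin, stood at 584 ± 6.59, 183 ± 9.12, 223 ± 4.73 and 293 ± 8.85 CPM in WT, BN1, MA9 and ME. S100a1 was nearest to Rapgef3 (0.16), Renbp (0.16) and Pecr (0.18), and S100a13 to Sipa1l1 (0.11), Atp1b3 (0.11) and Gga2 (0.11).

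The 9 other S100 symbols in the table were too low to test. S100a3 had 34 counts over the WT libraries, 1 in BN1 and 0 in MA9 and ME. S100a2 had 20, 4, 1 and 0 counts and S100a7a 20, 10, 0 and 0 counts in WT, BN1, MA9 and ME. S100a14 had 3, 8, 1 and 9 counts and S100a16 1, 3, 0 and 7 counts. S100a5, S100b and S100g had at most 5 counts over all 12 libraries, and S100z had none. A count of 0 over a group allows a level of up to 0.0536 CPM in WT, and 0.0413, 0.0471 and 0.0494 in the respective leukemias BN1, MA9 and ME, a limit that covers counting error only.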

How the data were processed

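The authors deposited raw read counts, whole numbers per gene symbol (35976 symbols, 12 libraries). HISAT2, featureCounts, DESeq2 and the build mm10 are named in the submitters' processing notes. The annotation release, tool versions and use of strand in counting were not given in the sources used here. RNA was, per the labels' protocols, purified on RNeasy columns and libraries were made with a stranded TruSeq mRNA kit. All columns of the table belonged to these samples, 0 to another series.

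The filterByExpr rule left 15334 genes, and TMM factors ran from 0.928 to 1.051. All 12 libraries entered a single robust quasi-likelihood fit of edgeR (biological coefficient of variation 5.87%, 18.61 prior and 8 residual degrees of freedom), and p-values were adjusted by Benjamini-Hochberg over all tested genes for each of 6 comparisons. SEs of log2 fold changes were taken from the F statistic and are approximate, and the interval uses the t distribution with the gene's own degrees of freedom. The fit was also run on simulated data in which few genes, all well above the low-count filter, were changed in balanced directions. Most genes were called against WT in the real data, so that run does not bear on the scaling or the calls here. The S100 genes and the gene lists (S100 receptors, intracellular partners, transcription factors, other EF-hand genes, cell type markers) were chosen with earlier results of these data known, and the motifs with the sequences in view. S100a7l2 and Azu2 of these lists were not found in the table. Single values of some cell type markers are not reported here.

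Named beside the 8 S100 genes were up to 2 called members per list and direction with the largest change among those with at least 5 CPM, of which not all are printed, the 3 genes of nearest profile for each S100 gene, Ptprc and Anxa2. Cd14, Nptn and Klf4 met this rule in some leukemias and are given for each. Other list members that are named, such as Tlr4, Ager, Alcam, Ahnak, Myh9, Cebpa and Spi1, were chosen after their values were seen. Profiles used log2 CPM with a prior count of 2. Replicate numbers were checked for pairing and did not pair the libraries. No replicate pair had counts within sampling noise. Alternatives were DESeq2, limma-voom, other scaling and filters, fits of the compared groups alone, each library left out, a replicate block and a 2-fold minimum. Gene positions are those of RefSeq on GRCm38.p6. Transcript lengths are those of the longest protein-coding GENCODE transcript of each gene, and untranslated regions are also from GENCODE. The fits ran in R 4.3.3 with edgeR 4.0.16, DESeq2 1.42.0 and limma 3.58.1. Summaries and plots were made in Python 3.11.15 (matplotlib 3.10.9, numpy 2.4.6, pandas 2.3.3).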

Additional observations from a re-analysis of the deposited data

Results flagged for a closer look

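Searched here were the 8 S100 genes, 11 receptor and signalling genes, 14 intracellular partners, 13 transcription factor genes and 14 other EF-hand genes. Of those with at least 5 CPM in some group mean, 7 changed in called but opposite directions against WT in different leukemias. For these 7 the direct comparison of the leukemias was also called by edgeR. The share of all genes that meet this rule was not computed, so 7 cannot be called many or few. In either direction, 79.2%, 80.1% and 79.2% of all tested genes were called against WT in BN1, MA9 and ME, which is not the share for this rule. Tlr4 differed by 0.99 (log2) between BN1 and MA9 and by -1.44 between MA9 and ME (adjusted p of 2.6e-12 and 2e-15). Cd14 differed by -1.10 between BN1 and MA9 and by -1.77 between BN1 and ME (1.4e-10 and 3.7e-15). Nptn was higher in BN1 by 1.26 against MA9 and by 1.29 against ME (4.2e-17 and 3e-17). Ahnak was higher in BN1 by 2.66 against MA9 and by 1.96 against ME (3e-13 and 1.2e-11). Klf4 was higher in BN1 by 2.89 against MA9 and by 1.56 against ME (9.4e-22 and 7.5e-17). Stat3 differed by 0.271 between BN1 and MA9 and by -0.271 between MA9 and ME (2.3e-06 and 5.9e-06). Calm2 was lower in BN1, at -0.865 against MA9 and -0.807 against ME (1.1e-11 and 4.8e-11). Ahnak, Klf4 and Calm2 kept their opposite calls against WT under the other 3 scalings, with DESeq2's size factors, the upper quartile or library sizes alone. Stat3 lost them under each: with library sizes alone it was 0.0426 in MA9 against WT (adjusted p = 0.38), with the upper quartile -0.0564 (0.22), and with size factors 0.0911 in BN1 (0.052). Tlr4 in BN1 was not called with size factors (0.17), nor Cd14 in BN1 (0.15) and Nptn in MA9 (0.23) with library sizes alone. None of the 8 S100 genes showed opposite calls.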

How the results depend on the processing

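Over 48 pairs of an S100 gene and a comparison and 21 alternatives other than the 2-fold minimum, 996 of 1008 values kept direction and call. S100a8 in MA9 against ME, never called, ran from -0.26 to 0.06344 (log2) with 1 library left out, the latter without ME replicate 3 (adjusted p = 0.834 in edgeR), and the other changes were the lost calls of S100a1 and S100a13 given above. With a minimum change of 2-fold, the genes called numbered 4773, 4813 and 4692 in BN1, MA9 and ME against WT, 2613 in BN1 against MA9, 2298 in BN1 against ME and 1174 in MA9 against ME, and the S100 genes called were 5, 7 and 6 in BN1, MA9 and ME against WT, 4 in BN1 against MA9, 3 in BN1 against ME and 4 in MA9 against ME, fewer since this test asks for more. Leaving out 1 library at a time gave 11940 to 12522, 12091 to 12626, 11915 to 12431, 9859 to 10602, 9356 to 10094 and 5523 to 6425 genes in the same order of comparisons. A replicate block changed no call of the 8 genes (12042 genes called in BN1 against WT), and libraries of the same number correlated at -0.0806 to 0.0625 in their deviations, 4 of 12 best with their own number. Scaling by library size alone moved the median of all genes by 0.118, 0.171 and 0.110 in the comparisons with WT. Depth limits S100a4 in MA9 and S100a1 in WT most.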
